A study of Mus musculus with 34 samples.

Results

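Coactivator peaks in gene deserts were the peaks that the authors' tables place more than 200 kb from the nearest gene. They were selected on the distance column of 10 peak tables from chromatin immunoprecipitation sequencing (ChIP-seq) of FLAG-tagged proteins. The rule found 2116 such peaks among 59888, or 3.53% (exact 95% Clopper-Pearson interval 3.39 to 3.68%). Overlapping peaks merged into 1961 regions with 877 different nearest genes. The comparison class was the 24977 peaks of the same tables at 10 to 200 kb. All positions are in mm9.

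Tissue came from mouse embryos of day 11.5 (e11.5) on a 129/C57BL/6 background that carried a FLAG tag knocked in to a coactivator gene, and embryonic stem cells (ESC) of that background carried such a tag too. The 10 tables are SMARCA4 in ESC, heart, hindbrain and midbrain, SMARCC2 in face and hindbrain, EP300 in face and ESC, and NCOA1 and NCOA2 in hindbrain. Each is 1 library, so no condition has a replicate; tissue was pooled from about 150 embryos (SMARCA4 hindbrain) or 300 embryos (the other tissues) of both sexes, and the FLAG tag was the target of each immunoprecipitation. The 6 control lists that were used come from the same tissues, pools and background, and the labels call them input controls. A further 4 SMARCA4 lists (face, forebrain, limb, neural tube) give positions only and were used to count how many of 14 FLAG lists hold a peak. Histone H3 marks were mapped in limb and forebrain of CD1 embryos, which is neither the strain nor, by the sample titles of the 10 tables, the tissue of the tagged samples. The labels give the SMARCA4 hindbrain sample a forebrain tissue tag, give a SMARCA4 knock-in genotype to samples of the other factors, and describe SMARCA4 ESC as pooled from embryos. Marker genes of the labelled tissues were nearest to few desert peaks (below), so these peaks do not check the tissue labels.

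A gene desert is a long stretch of a chromosome without protein-coding genes. Deserts beside genes that control development are known to hold enhancers, which act on a promoter over long distances by looping of the DNA. Enhancers are usually flanked by histone H3 monomethylated at lysine 4 (H3K4me1), and active ones carry acetylation at lysine 27 (H3K27ac). EP300 is the acetyltransferase that places much of this acetylation. SMARCA4 is the ATPase, and SMARCC2 a scaffold subunit, of the SWI/SNF (BAF) complex, which moves nucleosomes. NCOA1 and NCOA2 are coactivators that nuclear receptors recruit. The mark H3K4me3 sits at active gene starts and H3K27me3 at genes silenced by Polycomb.

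Most of these peaks lay outside genes, which does not by itself show a long stretch without genes around them. The tables divide the bases of each peak over 14 annotation columns, whose short names the headers do not define. Read by their names, 1881 desert peaks (88.9%) lay wholly outside genes and 235 had bases within one. Bases outside genes split into 46.5% and 40.2% of all desert peak bases for the columns named ig3 and ig5. Introns took 6.56% of bases in the internal coding column and 3.14% in the last one, and exon columns took at most 0.116% each. The peaks within genes show that distance was not measured to the nearest edge of a gene. For example, all 17 peaks given to Wwox, an oxidoreductase gene known for its length and its fragile site, had bases within the gene at 247446 to 580099 bp.

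The share of peaks in deserts differed widely between lists. It was 23.7% in SMARCC2 hindbrain (538 of 2272 peaks, interval 21.9 to 25.5%) and 12.9% in NCOA1 hindbrain (182 of 1414, 11.2 to 14.7%). SMARCA4 had 4.02% in ESC (272 peaks), 3.53% in hindbrain (193), 3.17% in midbrain (48) and 2.09% in heart (287). SMARCC2 face had 3.04% (344 peaks), EP300 ESC 1.88% (195) and EP300 face 1.20% (43). NCOA2 hindbrain had the lowest share, 0.407% (14 of 3444, 0.222 to 0.681%). The 2 lists at the top are both of hindbrain and of factors from different complexes, and the other 2 hindbrain lists were not among them. Intervals here and below cover counting error only. Each condition has 1 library and the depths of the libraries are not known, so these shares were not tested between conditions. Without NCOA1 hindbrain and SMARCC2 hindbrain the pooled share was 2.48%.

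Deserts also held peaks of the control lists. The 6 controls had between 1.35% (SMARCA4 midbrain control, 266 peaks) and 10.02% (SMARCC2 face control, 108 peaks) of their peaks there. Of the 6 pairs of a FLAG list and its own control, the FLAG list had the higher desert share in 3 and the lower in 3, with the intervals apart in all 6. SMARCC2 hindbrain (23.7%) stood above its control (6.84%), as did NCOA1 hindbrain (12.9%) above 7.44% and SMARCA4 midbrain (3.17%) above 1.35%. SMARCC2 face (3.04%) stood below its control (10.02%), EP300 face (1.20%) below 2.88% and NCOA2 (0.407%) below 1.50%.

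**Figure D1:**
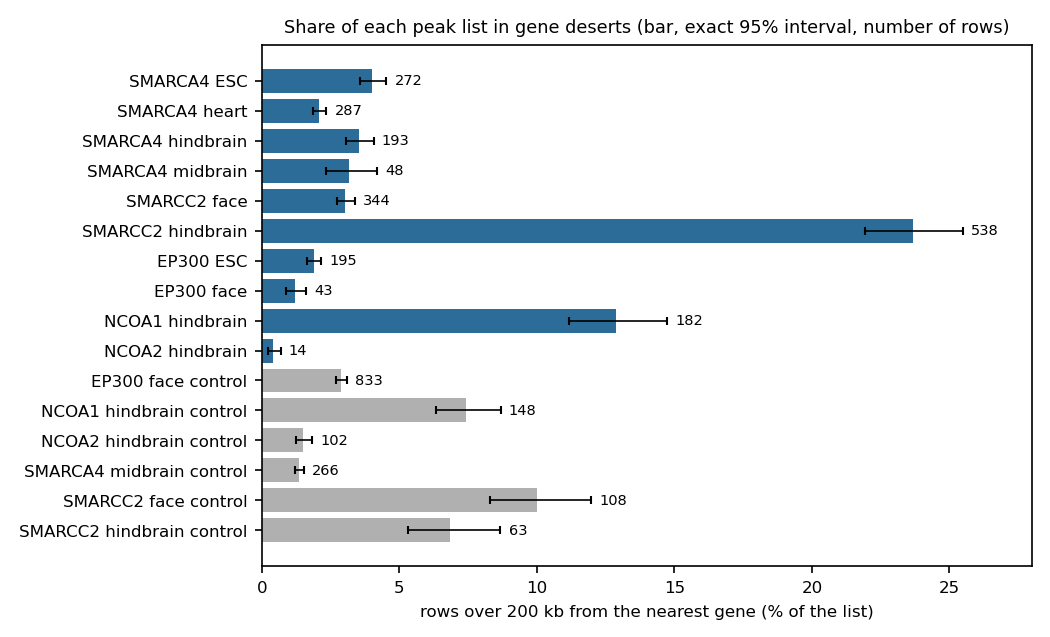
Percent of each list's peaks (rows of the authors' table) that lie over 200 kb from the nearest gene, for 10 FLAG lists (blue) and 6 controls (grey). Bars show the share, whiskers its exact 95% interval, and the number beside each bar counts the peaks. SMARCC2 hindbrain (23.7%) and NCOA1 hindbrain (12.9%) stand above the other FLAG lists.

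Most desert peaks lay between 200 and 500 kb from their gene. Beyond 500 kb there were 385, of which 197 came from SMARCC2 hindbrain, 56 from NCOA1 hindbrain, 41 from SMARCA4 ESC, 30 from SMARCA4 hindbrain, 24 from SMARCC2 face and 18 from SMARCA4 heart. EP300 ESC had 9, EP300 face 6, and SMARCA4 midbrain and NCOA2 2 each. Beyond 1 Mb lay 54 peaks, 37 of them of SMARCC2 hindbrain. The farthest was a SMARCC2 hindbrain peak 2519905 bp from Cdh6, a cadherin of cell adhesion (chr15:15623251-15623414, 8 tags). Next to the threshold, the 164 peaks at 190049 to 199950 bp and the 149 peaks at 200033 to 209994 bp had median tag counts of 17 and 13, lay over H3K4me1 in 48.2% and 48.3%, and were in another FLAG list in 36.0% and 30.9%. The peak just inside the threshold was an EP300 face peak near Sox5, a SOX family transcription factor (200033 bp, 12 tags). The peak just outside was a SMARCA4 ESC peak near Ext1, an enzyme of heparan sulfate synthesis (199950 bp, 7 tags).

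By median, desert peaks had fewer tags than peaks at 10 to 200 kb of the same list, or as many. The median tag count, the number of reads the authors counted in a peak, was 71.5 against 88 in SMARCC2 face, 30 against 35 in SMARCA4 heart, 18 against 26 in SMARCA4 midbrain and 11 against 15 in SMARCA4 hindbrain. It was 7 against 9 in SMARCA4 ESC, 5 against 6 in EP300 ESC, 10.5 against 11 in NCOA1 and 9 against 14 in NCOA2. EP300 face (15) and SMARCC2 hindbrain (8) had the same median in both classes. Median widths were also lower or equal, with values of 1341.5 against 1615 bp in SMARCC2 face, 492.5 against 659 bp in SMARCA4 midbrain and 173 bp in both classes of SMARCC2 hindbrain. The authors' fold enrichment went the other way, with a higher median in deserts in every list. It was 19.4 against 14.98 in SMARCA4 ESC and 4.55 against 4.22 in SMARCC2 face. The median score was higher in deserts in EP300 ESC, SMARCA4 ESC and SMARCC2 hindbrain and lower in the other lists. Fold enrichment and score were not tested. No list had a higher median count or width in deserts.

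The test of each such difference took the library as its unit, with both distance classes from the same library, and entered the 9 lists with at least 20 peaks in each class; NCOA2 hindbrain, with 14 desert peaks, did not enter. An exact two-sided sign-flip permutation test over these 9 libraries can reach 0.0039 at the lowest if no difference is 0. Differences of 0 raise that limit. The unadjusted permutation p-values for tags (0.0156) and width (0.0078) were each the lowest possible with their differences of 0. P-values were adjusted over 10 measures by Benjamini and Hochberg. The log2 ratio of median tags averaged -0.24 (SD 0.19, exact permutation, adjusted p = 0.026), with 7 libraries lower and the others equal. For width the mean log2 ratio was -0.17 (SD 0.14, exact permutation, adjusted p = 0.0195), with 8 lower. Lists share regions, mark lists and controls, so the libraries are not independent in every measure. The call on tags did not hold when SMARCA4 ESC, SMARCA4 heart, SMARCA4 hindbrain, SMARCC2 face, EP300 ESC or NCOA1 hindbrain was left out (adjusted p = 0.0521 each time, exact permutation over 8 libraries) or among peaks in no control or input list (adjusted p = 0.0625, log2 ratio -0.22). Nor did it hold without both NCOA1 hindbrain and SMARCC2 hindbrain (adjusted p = 0.0625, log2 ratio -0.30, exact permutation over 7 libraries). In the runs that left libraries out, every remaining difference in tags was lower or 0. The test could there only give the lowest p-value in its reach, which rises with fewer libraries. These lost calls therefore do not show a weaker difference.

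Fewer desert peaks carried the histone marks of enhancers and gene starts. Of the 2116 desert peaks, 771 (36.4%) lay over H3K4me1 of limb or forebrain, against 56.2% of the peaks at 10 to 200 kb and 65.4% of all 59888 peaks. The pooled shares mix lists of unequal length, so each list was read by itself. H3K4me1 lay under 85.4% of the desert peaks in SMARCA4 midbrain (41 of 48, against 91.4% at 10 to 200 kb) and under 83.7% in SMARCC2 face (against 89.7%). It lay under 56.5% in SMARCA4 hindbrain (against 65.7%), 52.3% in SMARCA4 heart (57.2%) and 30.1% in SMARCA4 ESC (38.5%). For EP300 the classes were closer, with 35.4% against 35.6% in ESC and 32.6% against 31.2% in face. SMARCC2 hindbrain had 1.67% (9 of 538, against 8.77%) and NCOA1 3.30% (6 of 182, against 5.85%). The share in deserts was lower by 4.77 percentage points on average (SD 3.63, 8 of 9 libraries lower, exact permutation, adjusted p = 0.0234). This call did not hold among peaks in no control or input list (-3.65 points, adjusted p = 0.111, exact permutation) or when a mark had to cover 50% of a peak (-3.79 points, adjusted p = 0.0586, exact permutation). It did not hold either without both NCOA1 hindbrain and SMARCC2 hindbrain (-4.76 points, adjusted p = 0.067, exact permutation over 7 libraries).

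H3K27ac and H3K4me3 were also rarer in deserts. H3K27ac of limb lay under 143 desert peaks (6.76%), against 16.1% at 10 to 200 kb and 39.3% of all peaks. By list, the desert and 10 to 200 kb shares were 8.29% and 22.6% in SMARCA4 hindbrain, 20.8% and 33.8% in SMARCA4 midbrain, 19.8% and 28.4% in SMARCC2 face, and 9.06% and 14.8% in SMARCA4 heart. They were 4.04% and 6.38% in SMARCA4 ESC and 0.186% and 1.05% in SMARCC2 hindbrain. In NCOA1 it was 0 of 182, with an interval up to 2.01%, against 4.46%. The mean difference was -7.20 points (SD 4.85, lower in 9 of 9 libraries, exact permutation, adjusted p = 0.013). H3K4me3 lay under 206 desert peaks (9.74%), against 20.2% at 10 to 200 kb and 52.1% of all peaks, with a mean difference of -7.12 points (SD 4.27, lower in 9 of 9, exact permutation, adjusted p = 0.013). H3K27me3 lay under 176 (8.32%), against 11.7% and a share of all peaks of 19.2%. No common direction was shown (-0.16 points, SD 4.40, exact permutation, adjusted p = 0.941): it was higher in deserts in SMARCA4 midbrain (14 of 48 peaks, or 29.2%, against 163 of 858 at 10 to 200 kb) and lower in SMARCA4 hindbrain (10.9% against 15.7%). The intervals of the 2 classes lay apart for H3K4me1 in 3 of 10 lists, for H3K27ac in 4 and for H3K4me3 in 5, with the desert share lower each time.

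**Figure D2:**
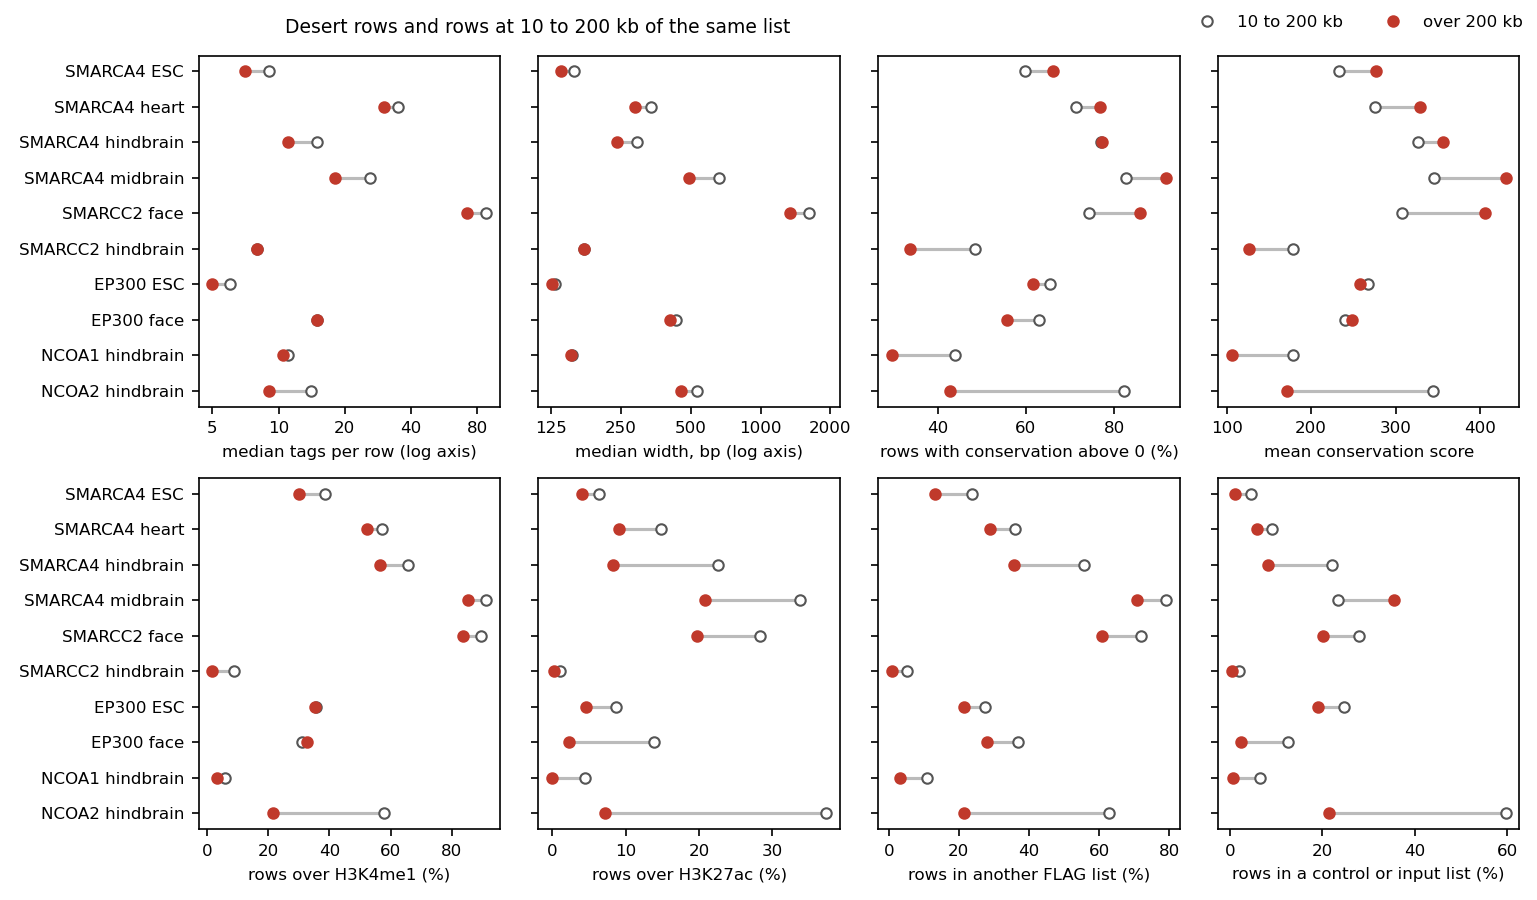
Values of desert peaks (filled red) and of peaks at 10 to 200 kb (open) of the same list, one line per list and one panel per measure, each axis with its own range; tags and width are on log axes. Tags, width, H3K27ac and recurrence were lower in deserts or equal in every list shown, while the conservation score was higher in the 4 SMARCA4 lists and SMARCC2 face and lower in NCOA1, NCOA2 and SMARCC2 hindbrain.

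Conservation split the lists. The tables give a conservation score per peak, whose scale the headers do not state. A score of 0 is not defined either and was read as no conserved element. The mean score was higher in deserts in all 4 SMARCA4 lists: 430 against 346 in midbrain, 356 against 327 in hindbrain, 329 against 276 in heart and 277 against 233 in ESC. SMARCC2 face had 406 against 307. In EP300 it was 248 against 241 in face and 258 against 268 in ESC. It was lower in SMARCC2 hindbrain (126 against 178), NCOA1 (106 against 178) and NCOA2 (172 against 344). The mean difference over 9 libraries was 20.5 (SD 58.1, 6 higher and 3 lower, exact permutation, adjusted p = 0.376), so no common direction was shown.

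The share of peaks with a conservation score above 0 had intervals apart in 4 of 10 lists, higher in deserts in SMARCC2 face and lower in SMARCC2 hindbrain, NCOA1 and NCOA2. SMARCC2 face had 85.8% in deserts (interval 81.6 to 89.3%) against 74.2% (73.0 to 75.4%) at 10 to 200 kb. SMARCC2 hindbrain had 33.8% (29.8 to 38.0%) against 48.4% (45.7 to 51.1%), and NCOA1 29.7% (23.1 to 36.9%) against 44.0%. NCOA2 had 42.9% (6 of 14) against 82.1%. The intervals overlapped in the other lists: 66.2% against 59.8% in SMARCA4 ESC, 76.7% against 71.3% in heart, 77.2% against 76.9% in hindbrain and 91.7% against 82.6% in midbrain. EP300 had 61.5% against 65.4% in ESC and 55.8% against 62.9% in face, where the mean score was higher in deserts. Beyond 500 kb, all 24 SMARCC2 face peaks, 17 of 18 SMARCA4 heart peaks and 27 of 30 SMARCA4 hindbrain peaks had a score above 0, against 67 of 197 in SMARCC2 hindbrain and 18 of 56 in NCOA1.

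**Figure D3:**
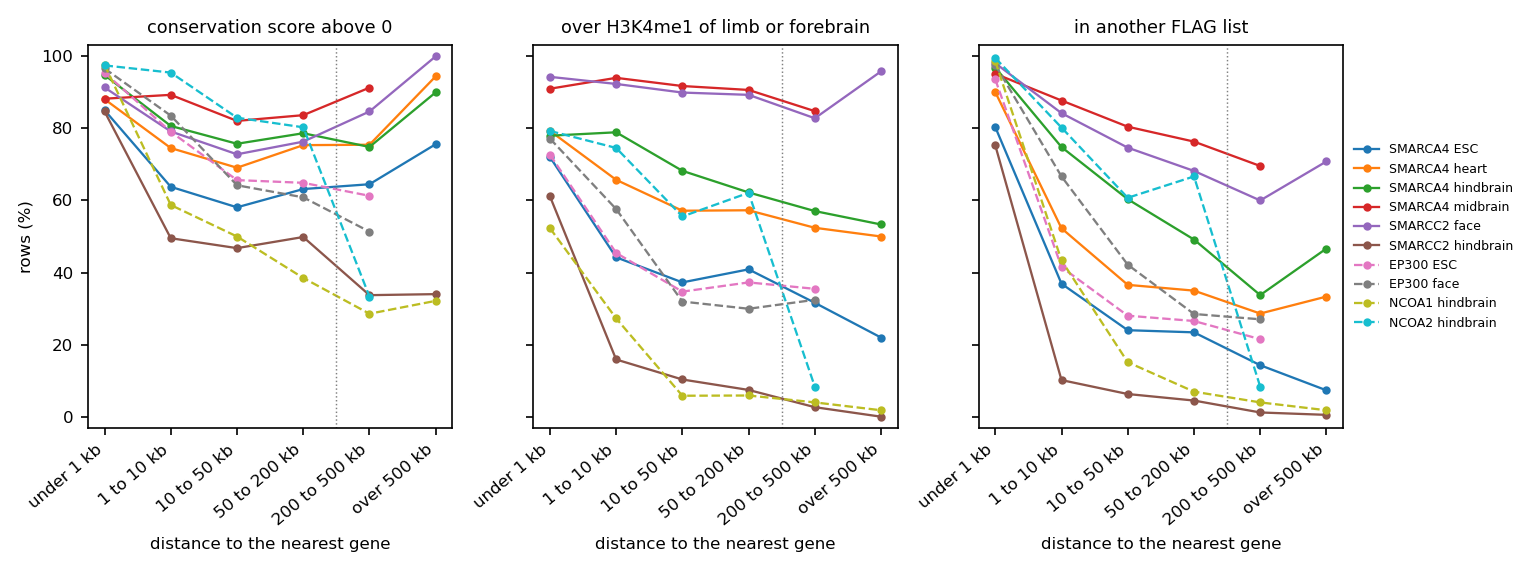
Percent of each list's peaks with a conservation score above 0 (left), over H3K4me1 of limb or forebrain (middle) and in another FLAG list (right), by distance to the nearest gene; classes with under 10 peaks are left out and the dotted line marks 200 kb. The conserved share is higher beyond 500 kb than at 200 to 500 kb in all 6 lists with 10 or more peaks there, by little in SMARCC2 hindbrain (34.0% against 33.7%) and NCOA1 (32.1% against 28.6%).

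Desert peaks over H3K4me1 were set beside the other desert peaks. Their median tag count and width were higher in each of the 10 lists, by amounts that differed: 32.5 against 26 tags and 319 against 252 bp in SMARCA4 heart, 75 against 55.5 tags in SMARCC2 face, and 6 against 5 tags in EP300 ESC. Pooled over lists, which the 2 sides draw on unequally, 87.5% of the 771 peaks over H3K4me1 had a conservation score above 0 and 57.2% were in another FLAG list. For the 1345 others these shares were 44.5% and 4.31%. Within SMARCA4 heart the conserved shares were 85.3% over the mark and 67.2% elsewhere, and 50.7% against 5.11% were in another FLAG list. Within SMARCC2 face they were 89.9% and 64.3%, with 68.8% against 19.6% in another list. Among peaks over H3K4me1, the mean conservation score of desert peaks exceeded that of peaks at 10 to 200 kb in 8 of 10 lists, for example 429 against 319 in SMARCC2 face and 404 against 301 in SMARCA4 ESC. The exceptions were NCOA1 (167 against 389, 6 desert peaks) and SMARCC2 hindbrain (289 against 325, 9 desert peaks). NCOA2, among the 8, had 3 desert peaks. Among peaks not over H3K4me1 the desert mean was higher in 5 lists and lower in 5, for example 223 against 190 in SMARCA4 ESC and 166 against 202 in EP300 face. This split was chosen after the values were seen and was not tested. Wider peaks have more chance to overlap a mark or another list, and the part of width in these shares was not tested either.

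Desert peaks were found in a second list less often than peaks at 10 to 200 kb of the same list. Of the 2116, 499 (23.6%) overlapped a peak of at least 1 other FLAG list by 1 bp or more, against 41.8% at 10 to 200 kb and 63.8% of all peaks. The share was 70.8% in SMARCA4 midbrain (against 79.0%), 60.8% in SMARCC2 face (72.0%), 35.8% in SMARCA4 hindbrain (55.7%), 28.9% in SMARCA4 heart (36.0%) and 27.9% in EP300 face (36.7%). It was 21.5% in EP300 ESC (27.5%), 21.4% in NCOA2 (62.7%), 13.2% in SMARCA4 ESC (23.8%), 3.30% in NCOA1 (10.9%) and 0.929% in SMARCC2 hindbrain (5.32%). The mean difference was -9.31 points (SD 4.52, lower in 9 of 9 libraries, exact permutation, adjusted p = 0.013), and the intervals lay apart in 7 of 10 lists. Of the SMARCC2 face desert peaks 53.8% overlapped SMARCA4 face, another subunit of the complex in the same tissue, against 59.97% at 10 to 200 kb. The share over SMARCA4 face was 52.1% against 64.7% in SMARCA4 midbrain and 26.9% against 41.8% in SMARCA4 hindbrain. Of the 195 EP300 ESC desert peaks 39 overlapped SMARCA4 face, against 21.7% at 10 to 200 kb, and 2 (1.03%) overlapped SMARCA4 of the same cells, against 2.02%. Of the SMARCC2 hindbrain desert peaks, 5 were in 1 other list and none in 2 or more.

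Overlap with control and input lists was also rarer in deserts in most lists, but the test over libraries made no call. Of all desert peaks 166 (7.84%) overlapped 1 of the 6 control or 3 histone input lists, against 16.1% at 10 to 200 kb and 42.6% of all peaks. The share was lower in deserts in 8 of 9 libraries and higher in SMARCA4 midbrain (35.4%, 17 of 48, against 23.3%). The mean difference was -4.38 points (SD 7.25, exact permutation, adjusted p = 0.156). Without SMARCA4 midbrain, the only one of the 9 libraries with a higher share, it was -6.44 points. The 8 libraries left all go the same way, so a test of them can only give its lowest p-value and adds no support. A list's own control held 5 desert peaks in all: 1 of 43 in EP300 face, 1 of 14 in NCOA2 and 3 of 48 in SMARCA4 midbrain. It held 0 of 344 in SMARCC2 face, 0 of 538 in SMARCC2 hindbrain and 0 of 182 in NCOA1, with intervals up to 1.07%, 0.683% and 2.01%. At 10 to 200 kb the own control held 0.225%, 0% and 0.557% in these lists, so the low counts are not particular to deserts. In EP300 face, NCOA2 and SMARCA4 midbrain it held 9.81%, 9.45% and 4.66% at 10 to 200 kb. With 5 libraries the exact test of the own control cannot go below 0.0625 (mean difference -1.34 points, SD 3.53, exact permutation, adjusted p = 0.694).

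Desert peaks of 1 list had a peak of the same list within 20 kb less often in 8 of 10 lists. In SMARCA4 heart 25.8% had such a neighbour, against 56.8% at 10 to 200 kb, and in SMARCC2 face 23.3% against 46.4%. In SMARCC2 hindbrain it was 2.79% against 4.42%. EP300 face (4.65% against 3.65%) and NCOA2 (14.3% of 14 peaks against 4.48%) were the exceptions. The median distance to the nearest peak of the same list was longer in deserts in SMARCA4 heart (72280 against 15490 bp) and SMARCC2 face (66498 against 22377 bp) and shorter in SMARCC2 hindbrain (294380 against 327577 bp). These values are descriptions, without a test.

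Merged desert regions were mostly held by 1 FLAG list: 1617 of 1961 (82.5%), of which 20.4% lay over H3K4me1 and 0.989% over H3K4me3. The 225 regions of 2 lists lay over H3K4me1 in 84.9% (interval 79.5 to 89.3%) and over H3K4me3 in 19.6%. From 3 lists on there were 63, 25, 18 and, with 6 or more lists, 13 regions. Among those 13, 92.3% lay over H3K4me1, 92.3% over H3K4me3, and 69.2% in a control or input list, against 2.35% of the regions of 1 list. Wider regions have more chance to overlap, and the median width rose from 178 bp in 1 list to 1718 bp in 6 or more. The part of width in these shares was not tested.

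**Figure D4:**
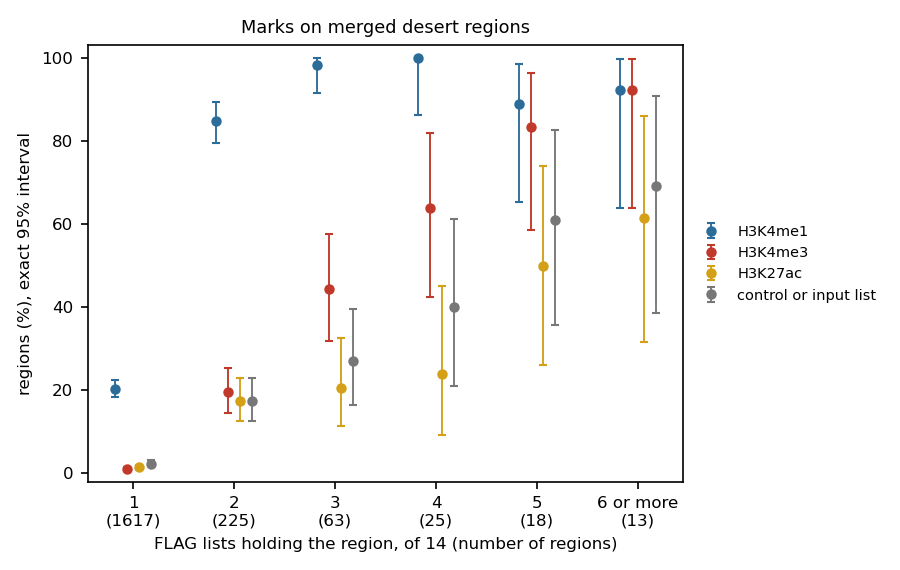
Percent of merged desert regions over H3K4me1 (blue), H3K4me3 (red) and H3K27ac (yellow) and in a control or input list (grey), by the number of the 14 FLAG lists that hold the region (number of regions in brackets), with exact 95% intervals. Only regions of 1 list lie mostly outside H3K4me1, and the shares over H3K4me3 and in control or input lists are highest in the regions of 6 or more lists.

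A region without any mark was held by as many FLAG lists as any other. It lay at chr4:150978042-150979603, about 228 kb from AK017048, in 9 of 14 FLAG lists and 0 of 9 control and input lists, with a conservation score of 0 and no overlap with any of the 7 histone lists. It was the peak with the highest authors' score in all of EP300 ESC (85 tags, rank 1 of 10356) and the second in EP300 face (542 tags, rank 2 of 3589). SMARCA4 ESC held it with 61 tags (rank 12 of 6764), NCOA1 hindbrain with 37 (rank 156 of 1414) and NCOA2 hindbrain with 37 (rank 267 of 3444). SMARCA4 heart had 130 tags there (rank 161 of 13755) and SMARCC2 face 74 (rank 6744 of 11321). SMARCA4 face and neural tube held it too, and SMARCA4 midbrain, SMARCA4 hindbrain and SMARCC2 hindbrain did not. The authors' fold enrichment ran from 5.11 in SMARCC2 face to 99.8 in EP300 face.

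The other widely shared regions looked different. The one near Chd7, a chromatin remodeller whose loss causes CHARGE syndrome (chr4:8836216-8841183, 218312 to 221496 bp away), was also in 9 FLAG lists, lay over H3K4me1, H3K27ac and H3K4me3, and was in 4 control or input lists. It was the desert peak with most tags in SMARCC2 face (258), SMARCA4 midbrain (152) and SMARCA4 hindbrain (107), while EP300 ESC had 11 tags there. The region near Prl5a1, a prolactin family gene (chr13:28509090-28512112), was in 8 FLAG lists and 1 control or input list. A region 1009004 to 1009460 bp from Nlgn1, a synaptic adhesion protein (chr3:25042441-25043559), was in 7 FLAG lists with 73 tags in EP300 face, 32 in NCOA2, 10 in SMARCA4 hindbrain and 5 in EP300 ESC, over H3K4me3 of both tissues and in 3 control or input lists.

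Of the 344 regions in 2 or more FLAG lists, 86 were in a control or input list. Some of the regions in many lists were in none. A region 546986 to 547937 bp from Maf, a leucine zipper transcription factor (chr8:117682588-117684140), was in 6 FLAG lists: 80 tags in SMARCC2 face, 29 in SMARCA4 heart, 24 in midbrain and 17 in hindbrain, besides SMARCA4 face and forebrain. It lay over H3K4me1 and H3K4me3 and not over H3K27ac. A region about 246 kb from Mycn, a MYC family transcription factor of dividing progenitors (chr12:12699912-12702200), was in 5 lists, with 164 tags in SMARCC2 face, 22 in SMARCA4 midbrain and 20 in SMARCA4 hindbrain. It had the highest score among desert peaks outside control and input lists in both SMARCC2 face and SMARCA4 midbrain. Near Zfp462, a zinc finger protein, a region (chr4:54664883-54666669) was in 5 lists, over H3K4me1 and H3K27ac and not over H3K4me3, with 90 tags in SMARCC2 face, 17 in SMARCA4 midbrain, 11 in SMARCA4 hindbrain and 5 in EP300 ESC. The regions near D12Ertd553e and 9430010O03Rik were in 6 lists each. The top desert peaks of SMARCC2 hindbrain were of another kind: the highest score was near Rgs18, a regulator of G protein signalling (12 tags, rank 3 of 2272, 792356 bp), and the most tags near AK051417 (25 tags, rank 4, 1291960 bp), both with a conservation score of 0, no mark and no other list.

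Desert peaks were spread over many genes. Of the 877 nearest genes 420 had 1 merged region and 247 had 3 or more, and the 20 genes with most regions held 199 of 1961. A nearest gene is the authors' name for a position and was not shown to be a target. Wwox had 17 regions, all within the gene, and Zfp608 had 16. Mycn, Maf, 4930473A06Rik and Bcl11b, a zinc finger transcription factor of neurons and T cells, had 11 each. AK015818, Mast4, a kinase, and Zfp521, a zinc finger protein, had 10 each. Mpdz, a scaffold of cell junctions, Erlin2, a membrane protein, Zfp536, a zinc finger protein, and AK015628 had 9 each. A further 7 genes had 8 regions each, among them Sox6, a SOX factor of muscle and cartilage, Psmd7, a proteasome subunit, Trpc7, a cation channel, Grg4, a Groucho corepressor, and Lsamp, a neuronal adhesion protein.

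Which lists supplied the peaks differed by gene. Zfp608 drew 8 peaks from SMARCA4 heart (24 to 67 tags), 7 from SMARCC2 face (42 to 119 tags), 4 from SMARCA4 hindbrain (10 to 26 tags) and 1 from SMARCC2 hindbrain, at 204764 to 702357 bp. Of its 16 regions 14 lay over H3K4me1 and 6 were in 2 or more FLAG lists. Mycn drew 15 peaks from 7 lists at 213736 to 329457 bp: 5 from SMARCC2 face (48 to 164 tags), 4 from SMARCA4 midbrain (13 to 25 tags), 2 from SMARCA4 heart (22 and 43 tags) and 1 each from SMARCA4 ESC, SMARCA4 hindbrain, EP300 face and SMARCC2 hindbrain. No other gene had as many desert peaks in the SMARCA4 midbrain list. Maf drew 7 of its 14 peaks from SMARCC2 face, 3 from SMARCA4 heart and 2 from SMARCC2 hindbrain, and all 14 had a conservation score above 0. Bcl11b drew 5 peaks from SMARCC2 face (83 to 178 tags) and 4 from EP300 ESC (5 or 6 tags), the most of any gene in that list.

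In the other lists the leading genes were others. SMARCA4 ESC had 5 desert peaks each near Grg4 and AK013883. SMARCC2 hindbrain had 5 near Dbc1 and 4 each near Lsamp and Dcc, the netrin receptor of growing axons. NCOA1 had 3 near Olfm4, a secreted olfactomedin, at up to 2022001 bp. None of the regions of Lsamp, Dbc1 or Olfm4 lay over H3K4me1 or in a second FLAG list, whereas 6 of 7 near Sall1, a zinc finger transcription factor of limb and kidney, and 6 of 7 near Cadm1, an adhesion protein, lay over H3K4me1. Most peaks near Lsamp, Dbc1 and Olfm4 came from SMARCC2 hindbrain or NCOA1, and none near Sall1 or Cadm1 did. In SMARCC2 hindbrain and NCOA1, H3K4me1 lay under 1.67% and 3.30% of all desert peaks. Another FLAG list held 0.929% and 3.30% of them. A difference between these genes thus cannot be told apart from one between the lists. EP300 face and NCOA2 had no gene with 3 or more desert peaks.

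**Figure D5:**
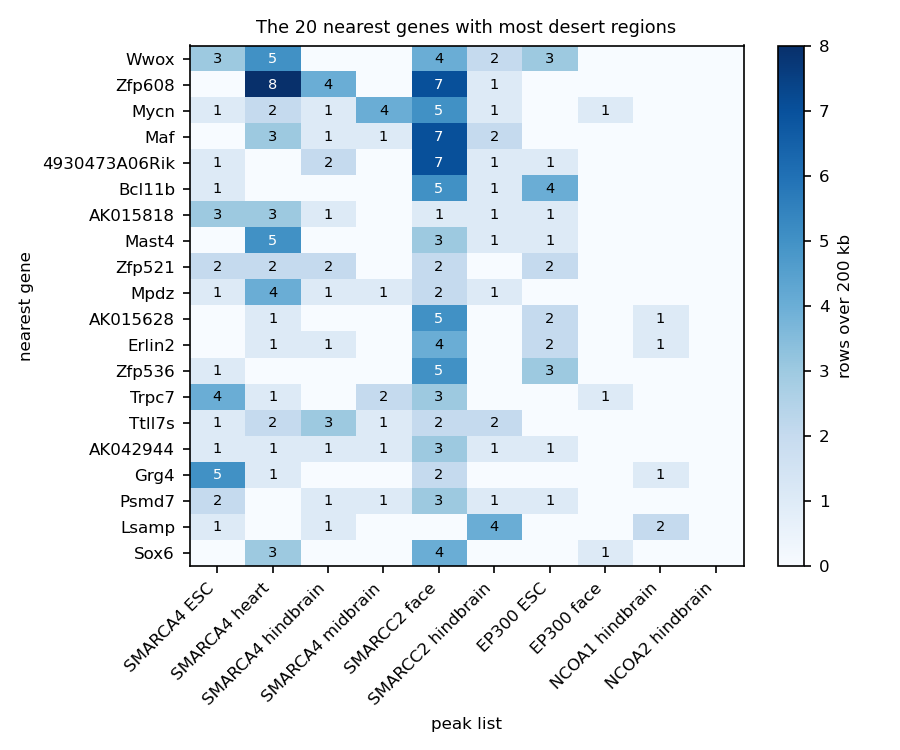
Number of desert peaks (rows) in each of the 10 lists (columns) for the 20 nearest genes with most merged desert regions; darker cells hold more peaks and empty cells none. Zfp608 has 8 peaks in SMARCA4 heart and 7 in SMARCC2 face, Mycn has 4 in SMARCA4 midbrain, and Lsamp has 4 in SMARCC2 hindbrain.

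Several gene groups were nearest to a larger share of desert peaks than of peaks at 10 to 200 kb. The part of gene length and of the gaps beside genes in these shares was not tested. The shares are descriptions and show nothing particular to a group. Axon guidance and neuronal adhesion genes were nearest to 111 desert peaks at 33 genes (5.25%, interval 4.33 to 6.28%), against 0.869% at 10 to 200 kb and 0.773% of all peaks. SMARCC2 hindbrain gave 43 of the 111 and NCOA1 16, and without both lists the share was 3.72%. Cadherins and protocadherins, which hold neighbouring cells together, had 38 (1.80% against 0.256%), among them Cdh6 with 5, Fat4 with 6, and Cdh18 and Pcdh20 with 4 each. Genes known to be very long had 104 (4.91% against 0.945%), led by Wwox with 17, Ctnnd2, a delta catenin, with 9, Lsamp with 8 and Dcc with 7.

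Developmental transcription factors were nearest to 89 desert peaks at 32 of 119 genes (4.21%, interval 3.39 to 5.15%), against 2.31% (2.12 to 2.50%) at 10 to 200 kb and 1.68% of all peaks. The desert shares were 9.30% in EP300 face (4 of 43 peaks), 8.21% in EP300 ESC (16, against 1.67%), 6.40% in SMARCC2 face (22, against 3.17%) and 4.18% in SMARCA4 heart (12, against 2.27%). In SMARCC2 hindbrain they were 2.04% and 2.25% (11 desert peaks). Bcl11b, Sall1 (9 peaks), Sox6 (8) and Id2, an inhibitor of helix-loop-helix factors (6), led this group. Mycn (15 peaks) and Maf (14), which are also transcription factors, were not on its gene list. Signalling genes had 24 peaks (1.13% against 0.757%), with 4 each near Bmper, a modulator of bone morphogenetic proteins, and Fzd1, a Wnt receptor, and 3 each near Fgf9, a fibroblast growth factor, and Fzd8.

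Marker genes of the sampled tissues were seldom the nearest gene of a desert peak. Heart genes had 7 desert peaks (0.331% against 0.288% at 10 to 200 kb), midbrain genes 4 (0.189% against 0.212%), face genes 2 (0.0945% against 0.280%) and hindbrain genes 1 (0.0473% against 0.244%). The heart genes were Zfpm2, a GATA cofactor (3 peaks), Irx4, a ventricular homeobox gene (3), and Tbx18, a T-box gene (1), and SMARCA4 heart gave 1 of these 7. The hindbrain peak was near Atoh1, a factor of cerebellar and brainstem neurons, in NCOA1 hindbrain. Pluripotency genes had 18 (0.851% against 0.260%), of which 15 were near Mycn and only 3 in SMARCA4 ESC and none in EP300 ESC. Besides Mycn these were Klf5, with 2 peaks in SMARCA4 ESC, and Dppa4, with 1 in SMARCC2 hindbrain.

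Chromosomes contributed unequally. Chromosome 12 held 8.70% of desert peaks and 4.53% of peaks at 10 to 200 kb, and chromosome 8 held 8.84% and 5.43%. Chromosome 11 held 4.11% and 6.47%. Chromosome X held 26 desert peaks (1.23% against 0.416%), of which 20 were in SMARCC2 hindbrain, 3 in SMARCA4 ESC, 2 in SMARCA4 hindbrain and 1 in SMARCA4 midbrain. In SMARCC2 hindbrain the share on X was 3.72% in deserts and 1.87% at 10 to 200 kb, with overlapping intervals.

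The authors' false discovery rate differed between lists more than between distance classes. Its median over desert peaks was 100% in SMARCA4 midbrain and EP300 face, 21.5% in NCOA1, 7.50% in NCOA2, 0.74% in SMARCC2 face, 0.70% in SMARCA4 heart and 0.04% in SMARCC2 hindbrain, and the other 3 lists give none. At 10 to 200 kb the medians were 100% in SMARCA4 midbrain and EP300 face, 21.3% in NCOA1 and 5.89% in NCOA2. SMARCC2 hindbrain thus had the lowest rate of these 7 lists and, with a median of 8 tags, among the smallest counts. Reads in the libraries as a whole are not given in the tables, so the depth of each library is unknown.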

How the data were processed

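Members, gene lists and comparisons were chosen with earlier results of these data known. The submitters' processing notes name BWA and mm9; the peak caller and versions are not given in the sources used here. Per the file headers, each row of a deposited table is a peak with its tag count, a score (10 times the negative log10 of the p-value), fold enrichment as a ratio, FDR as a percent, a conservation score, 14 annotation columns and a nearest gene with its distance; every significance score was at least 50. These are the authors' values per library and only describe or rank peaks within a list. Positions were read as 0-based and are printed 1-based. Overlap meant at least 1 bp. Shares have exact 95% intervals. Tests were exact sign-flip permutations over libraries (Python 3.11.15, scipy 1.17.1, pandas 2.3.3), checked on simulated data. Genes named were the 20 with most merged regions, each list's leading gene with 3 or more peaks, the 10 regions in most FLAG lists (also among regions in no control or input list), each list's peaks with the highest score outside controls and with most tags, up to 4 members per gene list, and the peaks beside the threshold; the farthest peaks were added after their values were seen. Another 4 control samples, all for SMARCA4, were not analysed here. No peak sequence is printed, since no mm9 genome was used here. Alternatives were other distance limits, score and control filters, autosomes only, peaks wholly outside genes, other overlap rules, 500 bp windows on the summit, at least 50 peaks per class and leaving out each library.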

Additional observations from a re-analysis of the deposited data

Results flagged for a closer look

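The share of peaks with a conservation score above 0 moved in opposite directions in the 2 tissues of SMARCC2. In face it was 11.5 percentage points higher in deserts than at 10 to 200 kb (85.8% against 74.2%), and in hindbrain it was -14.6 points, that is lower (33.8% against 48.4%), with the intervals of the 2 classes apart in both lists. The difference between the tissues was not tested, because each has 1 library. Beside it, the median tag count of desert peaks was 71.5 in face and 8 in hindbrain, and H3K4me1 lay under 83.7% and 1.67%; the part of these in the difference was not tested.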

How the results depend on the processing

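No pairing between conditions was possible because the groups share only replicate number 1. The tests paired the 2 distance classes within each library. Values are mean desert minus 10 to 200 kb differences, with exact permutation p-values adjusted over 10 measures. Over 500 kb, 5 libraries had 20 peaks, where the smallest p is 0.0625 and no call can be made: tags -0.25 and width -0.19 (log2), H3K4me1 -7.13, H3K27ac -4.91, H3K4me3 -3.39 and recurrence -8.12 points. Among peaks in no control or input list, tags were -0.22 and H3K4me1 -3.65; with 50% overlap H3K4me1 was -3.79. Without NCOA1 and SMARCC2 hindbrain, an alternative added after seeing the data, tags were -0.30 and H3K4me1 -4.76. The control or input difference passed the threshold in the higher-scoring part of each list (-5.91) and with at least 50 peaks per class (-5.91). The latter setting leaves out SMARCA4 midbrain, which has 48 desert peaks and was the only library with a higher share in deserts. Conservation changed sign for peaks over 100 kb (-0.099), and H3K27me3 against 50 to 200 kb (0.058), outside control lists (0.54), with 50% overlap (0.25) and without the pair named above (0.23). The desert share was 5.67% outside control lists, 3.08% in the higher-scoring part and 2.48% without that pair. Transcription factor genes took 2.60% of peaks over 500 kb and 5.23% without the pair; axon guidance genes took 3.10% over 100 kb, 10.9% over 500 kb, 4.23% in the higher-scoring part and 3.72% without the pair.

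Leaving out each library gave ranges of -0.27 to -0.21 for tags, -0.19 to -0.14 for width, 10.7 to 32.1 for conservation, -5.54 to -4.21 for H3K4me1, -7.99 to -6.31 for H3K27ac, -7.90 to -6.24 for H3K4me3, -1.45 to 0.42 for H3K27me3, -9.93 to -7.98 for recurrence, -2.07 to 0.20 for the own control (positive without EP300 face), -6.44 to -3.21 for any control or input, 2.74 to 3.96% for the desert share, 3.78 to 4.94% for transcription factor genes and 4.31 to 5.64% for axon guidance genes. Low tag counts (medians from 5) limit the precision of single peaks.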
